A study of Arabidopsis thaliana with 51 samples.

Results

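The glutathione S-transferase genes GSTF4 (AT1G02950), GSTU18 (AT1G10360) and GSTU26 (AT1G17190) of Arabidopsis thaliana were followed across organs and between light and dark. They are the probes that the annotation table of the array assigns to these 3 genes, 1 probe each, so 3 of 27648 probes. Their names and loci were checked against the RefSeq annotation TAIR10.1, where all 3 lie on chromosome 1. There GSTF4 is next to GSTF5 (AT1G02940), GSTU26 is next to GSTU25 (AT1G17180), and GSTU18 is next to ERD9 (AT1G10370), a tau-class gene also known as GSTU17. How far a probe also binds transcripts of such close relatives was not tested. The probe sequences are not used here.

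Glutathione S-transferases join the tripeptide glutathione to electrophilic compounds, among them herbicides and products of lipid peroxidation, and the conjugates are then carried into the vacuole. Plants hold large families of these enzymes, of which the phi class (GSTF) and the tau class (GSTU) are typical of plants. Many of their genes are known for induction by chemicals and by stress, and single members differ widely in the organs that express them. GSTF4 belongs to the phi class, and GSTU18 and GSTU26 to the tau class.

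Transcript levels came from 51 two-colour arrays, on which 2 RNAs are hybridised together and read as a ratio. Cultured cells were the common partner of an organ on 45 arrays, in the groups germinating seed (3 arrays), light and dark cotyledon (2 and 3), light and dark hypocotyl (2 and 2), light and dark root (2 and 2), rosette leaf (3), cauline leaf (3), stem (3), sepal (2), petal (3), stamen (3), pistil 1DBP (2), pistil 1DPP (4), silique 3DPP (3) and silique 8DPP (3). On the other 6 arrays, 2 each for cotyledon, root and hypocotyl, light RNA was set directly against dark RNA of the same organ. Pistil and silique stages keep their label names (1DBP, 1DPP, 3DPP, 8DPP), and genotype, age, the light given and whether plants were pooled are not given in the sources used here. No source says that arrays of 1 group came from separate plants, so the p-values measure the spread between arrays, which may be technical. Both light root arrays carry the number 1 and may be of the same RNA. In whole organs, fewer cells of a type and less RNA per cell cannot be told apart.

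Levels are given as log2 ratios of organ over cultured cells, each array centred on its own median, so that 0 is the level of the median probe of that array. A level 1 unit higher is a 2-fold higher ratio. The direction of the deposited ratios is likely, not known. It rests on arrays of opposite dye, which run the same way, and on photosynthesis genes, which were highest in leaves. The markers largely followed the labels: LHB1B2, a light-harvesting protein, reached 10.1 in rosette leaf, the root peroxidase AT4G30170 reached 6.81 in light root, and the pollen gene VGD1 reached 8.03 in stamen. Exceptions were VGD1 in petal (4.96) and the pollen actin ACT12 in light hypocotyl (4.56), where VGD1 was at its lowest (−2.34). The seed oil-body gene OLEO3 was highest in dark cotyledon (4.62) and dark hypocotyl (3.65), above germinating seed (2.58) and silique 8DPP (0.10). An array held between 7410 and 26657 values. The array with the fewest, replicate 3 of silique 8DPP, had no value for GSTF4 and GSTU26 and 3.62 for GSTU18. GSTF4 had a value on 49 arrays, GSTU26 on 48 and GSTU18 on 44. No value lay at the lower limit of the deposited ratios.

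A probe was tested in limma's moderated fit where each group compared held at least 2 values, and was called at a Benjamini-Hochberg adjusted p under 0.05, over all probes, with at least a 2-fold difference. Most organs carried more of these transcripts than cultured cells did. GSTF4 was called higher in 13 and lower in 1 of 16 organ groups tested, GSTU18 higher in 12 and lower in 0 of 13, and GSTU26 higher in 12 and lower in 2 of 16. Over all probes and the 17 organ groups, 21.3% of tests were called higher and 21.1% lower. At an unadjusted p under 0.05 no tested organ was lower for GSTU18 either. The F test over the organ groups gave adjusted p = 5.8e-08 for GSTF4, 1.4e-05 for GSTU18 and 1.4e-10 for GSTU26 in limma, but most probes vary over organs by this test (91.4%, 84.4% and 91.4% of those tested over the same groups). Of the pairs of organ groups, 40 of 120 tested were called for GSTF4, 32 of 78 for GSTU18 and 55 of 120 for GSTU26 (33.3%, 41.0% and 45.8%), against 27.8% over all probes and pairs.

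**Figure D1:**
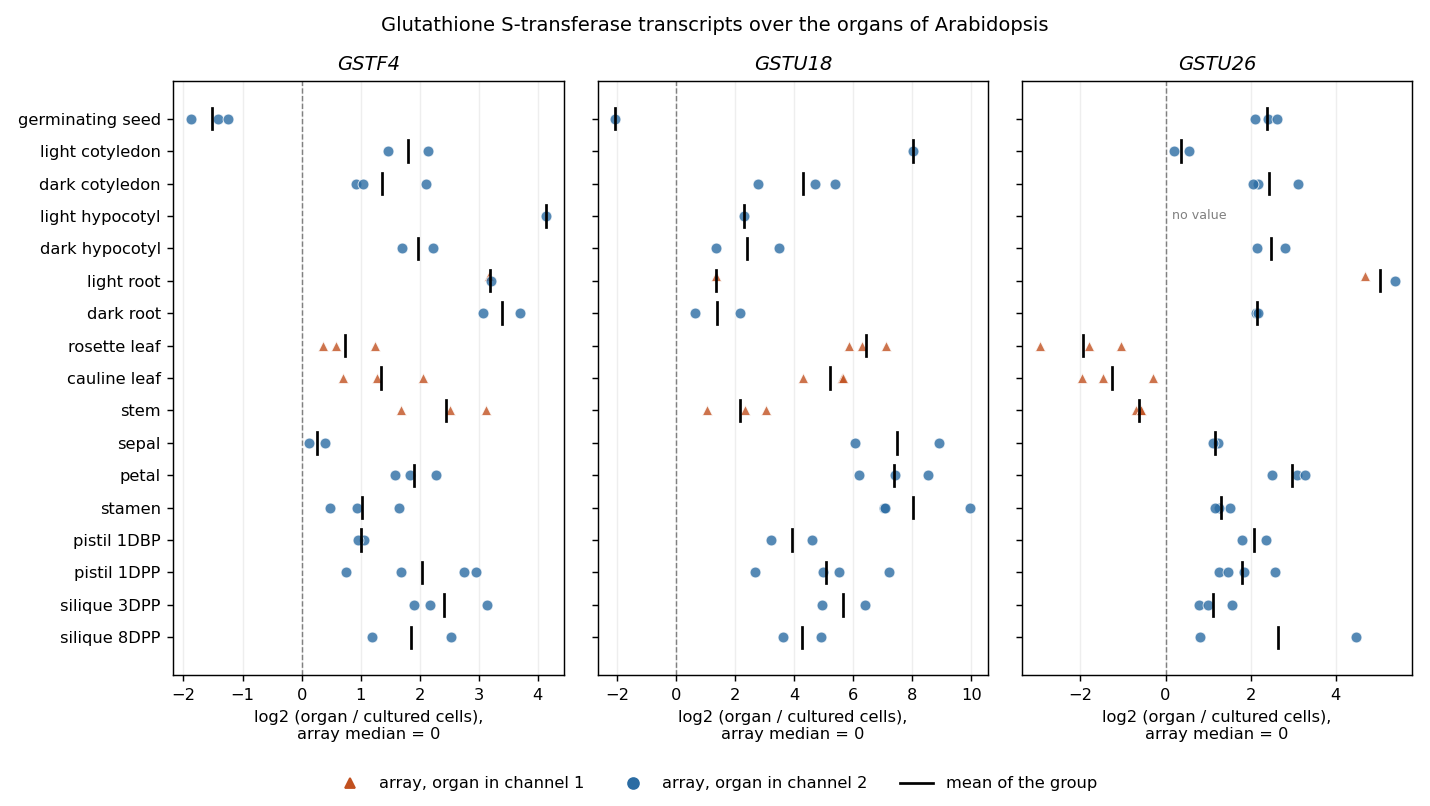
Centred log2 ratio of organ over cultured cells for each gene (horizontal axis) in the 17 organ groups (rows); points are arrays, marked by the channel that held the organ, and bars are group means. GSTF4 is highest in light hypocotyl (1 array with a value) and roots and lowest in germinating seed. GSTU18 has means of 7.39 or more in stamen, sepal and petal, and a single value of 8.02 in light cotyledon. GSTU26 is highest in light root and below 0 in both leaf types and stem.

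Among tested organs GSTF4 was highest in roots and lowest in germinating seed. In dark root its levels were 3.07 and 3.70, a mean of 3.39 ± 0.41 (SE, n = 2), which is 10.5-fold above cultured cells, where 13.2% of probes were called higher. In light root they were 3.21 and 3.17, so the light and dark root arrays overlapped. The single light hypocotyl value, 4.14, was higher still and could not be tested. Of the pollen markers, ACT12 was at 4.56 in that organ, TUA1 at 0.22 and VGD1 at −2.34. A part of pollen RNA in the value was not tested. Stem had 3.12, 2.50 and 1.69, silique 3DPP had 1.91, 3.14 and 2.17, and pistil 1DPP had 1.69, 2.96, 0.75 and 2.75. The tested organs among these were all called higher than cultured cells.

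The middle of the GSTF4 order lay close together. Dark hypocotyl averaged 1.96, petal 1.90, silique 8DPP 1.86, light cotyledon 1.80, dark cotyledon 1.36, cauline leaf 1.35, stamen 1.03 and pistil 1DBP 1.01. Rosette leaf (0.73) and sepal (0.25) were not called. Of 15 neighbours in the order that could be tested, 1 pair differed, sepal and germinating seed. The calls of cauline leaf, light and dark cotyledon, pistil 1DBP, silique 8DPP and stamen were lost without 1 of their arrays, with levels between 0.72 and 1.46 and adjusted p between 0.045 and 0.25 in limma, dark cotyledon by falling under 2-fold: these were cauline leaf without replicate 2, both cotyledon groups and stamen without replicate 1, silique 8DPP without replicate 2 and pistil 1DBP without either.

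Germinating seed was the one organ where GSTF4 was called below cultured cells. Its 3 arrays held −1.87, −1.42 and −1.24, a mean of −1.51 ± 0.34 (SE, n = 3; limma, adjusted p = 0.00023, 29.4% of probes called lower). None of these overlapped an array of another organ. Germinating seed was called lower than each of the 15 other groups that could be tested, where over all probes 27.4% of tests of germinating seed against another organ were called lower. Against dark cotyledon, at 2.11, 0.93 and 1.05, the difference was −2.87 ± 0.48 (adjusted p = 1.0e-05, 23.7% of probes called lower). Against silique 8DPP, at 1.19 and 2.53, it was −3.37 ± 0.53 (adjusted p = 6.2e-06, 26.9% called lower). The call against cultured cells depended on centring: the medians of these 3 arrays lay between 0.94 and 1.05, and on the uncentred values the mean was −0.51 (adjusted p = 0.19).

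Among related organs 4 of 14 comparisons were called for GSTF4, the pair with germinating seed and 2 others. Stem, at 3.12, 2.50 and 1.69, lay above the leaves, at 0.70, 2.06 and 1.28 in cauline and 1.25, 0.36 and 0.58 in rosette leaf. The difference of stem from the mean of both leaf types was 1.40 ± 0.41 (limma, adjusted p = 0.013, 7.91% of probes called higher), although 1 stem array lay below the highest cauline leaf array. Dark root, at 3.07 and 3.70, lay above all dark cotyledon arrays, with a difference of 2.03 ± 0.53 (adjusted p = 0.0084, 6.05% called higher). Without stem replicate 1 or 2 the stem difference was 1.06 or 1.37 (adjusted p = 0.13 and 0.052), without dark root replicate 2 the root difference was 1.71 (adjusted p = 0.13), and with the arrays of each comparison fitted alone adjusted p was 0.060 and 0.082. Petal, at 1.84, 1.58 and 2.27, was 1.64 ± 0.53 above sepal, at 0.39 and 0.12, with no overlap, but at adjusted p = 0.052 it missed the threshold.

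Among organs measured more than once, GSTU18 was highest in stamen, sepal and petal, followed by rosette leaf. Stamen held 9.97, 7.03 and 7.08, a mean of 8.03 ± 0.69 (SE, n = 3), which is 261-fold over cultured cells (23.5% of probes were called higher there) and above 99.7% of the probes measured in stamen. Sepal held 6.08 and 8.89, and petal 6.22, 7.43 and 8.54. All arrays of these floral organs lay above every cauline leaf array, but they overlapped those of rosette leaf. Leaf and stem RNA was in channel 1 on every array, and that of floral organs, pistils and siliques in channel 2. Dye and organ cannot be told apart in comparisons between these 2 sets. The single light cotyledon value was 8.02. Rosette leaf held 5.86, 7.11 and 6.32, and cauline leaf 4.32, 5.62 and 5.67. Petal, where VGD1 was at 4.96, and sepal were not told apart from stamen: the difference of stamen from the mean of both was 0.59 ± 0.88, with an interval of −1.22 to 2.40.

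Pistils and siliques averaged below stamen, sepal and petal for GSTU18, and their arrays overlapped those of cauline leaf. Silique 3DPP averaged 5.66 and cauline leaf 5.20 (limma, adjusted p = 0.82). Pistil 1DBP held 3.21 and 4.61, pistil 1DPP 5.51, 4.98, 2.67 and 7.21, and silique 3DPP 6.39 and 4.94. Silique 8DPP held 4.91 in replicate 1 and 3.62 in replicate 3, the array with only 7410 values. No step between these stages was called. The spread within a group was wide for this gene, with a standard deviation of 1.25 over its arrays, larger than in 91.4% of 26036 probes. The order is therefore coarse, and none of the 10 neighbouring pairs that could be tested differed.

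Stems, roots and hypocotyls had the least GSTU18 of the organs measured more than once. Stem held 1.07, 3.06 and 2.33, dark hypocotyl 3.48 and 1.35, and dark root 2.16 and 0.63. Light hypocotyl and light root held 1 value each, 2.31 and 1.35, and germinating seed held 1, −2.05, on the other side of 0. Stem, dark hypocotyl and dark root were each called lower than 7 of the 12 groups they could be tested against (11.7%, 18.1% and 12.9% of such tests over all probes were called lower). The calls of stem and dark hypocotyl against cultured cells rested on single arrays: the level was 1.70 or 2.06 without stem replicate 2 or 3 (limma, adjusted p = 0.12 and 0.059), and 1.35 without dark hypocotyl replicate 1 (adjusted p = 0.41).

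Among related organs 2 of 11 comparisons were called for GSTU18, both lower. In stem no array reached the lowest leaf array, 4.32, and the difference of stem from the mean of both leaf types was −3.66 ± 0.85 (limma, adjusted p = 0.0021), 12.7-fold lower, where 8.52% of probes were called lower. In pistil 1DBP no array reached the lowest petal or sepal array, 6.08, and the difference from their mean was −3.53 ± 1.01 (adjusted p = 0.0070, 11.5% called lower). That call was lost without pistil 1DBP replicate 2, at −2.82 (adjusted p = 0.14), and with arrays scaled to a common spread, at −2.32 (adjusted p = 0.077). Dark root was 2.89 ± 1.10 lower than dark cotyledon, at 2.76, 5.39 and 4.71, and missed the threshold (adjusted p = 0.085), while without dark cotyledon replicate 1 the difference was −3.65 (adjusted p = 0.037).

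GSTU26 was highest in light root and lowest in leaves. Its levels in light root were 5.38 and 4.68, a mean of 5.03 ± 0.47 (SE, n = 2), 32.7-fold above cultured cells, where 18.5% of probes were called higher. Every other organ array lay below these, the nearest being replicate 1 of silique 8DPP at 4.47. Light root was called higher than each of the 15 other groups with a test, where over all probes 15.3% of such tests of light root were called higher. The next group, petal, held 3.10, 2.51 and 3.27, and light root exceeded it by 2.07 (limma, adjusted p = 0.0090). This was the 1 neighbouring pair called of 15.

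The middle of the GSTU26 order held most organs at similar levels. Dark hypocotyl averaged 2.48, dark cotyledon 2.44, germinating seed 2.37, dark root 2.15, pistil 1DBP 2.08, pistil 1DPP 1.79, stamen 1.31, sepal 1.17 and silique 3DPP 1.12. Germinating seed, the low point of GSTF4, thus stood at 2.09, 2.41 and 2.62 for GSTU26, which was −0.07 ± 0.55 from dark cotyledon. The arrays of silique 8DPP disagreed, with 4.47 in replicate 1 and 0.81 in replicate 2. With 1 array left, assumed to vary like the other groups, its call was lost without replicate 1 (limma, adjusted p = 0.22), and its difference from silique 3DPP was −0.31 without replicate 1 and 3.35 without replicate 2 (adjusted p = 0.79 and 0.00016). The calls of sepal, without either array, and of silique 3DPP, without replicate 2, were lost as well, with levels between 0.89 and 1.22 and adjusted p between 0.13 and 0.20.

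Leaves and stem lay below 0 for GSTU26. Rosette leaf held −1.05, −1.79 and −2.96, a mean of −1.93 ± 0.39 (SE, n = 3), 3.82-fold below cultured cells (limma, adjusted p = 7.7e-05, 18.0% of probes called lower). Cauline leaf held −1.97, −0.30 and −1.48, a mean of −1.25 ± 0.39 (adjusted p = 0.0079, 16.4% called lower), and stem held −0.58, −0.70 and −0.58, which was not called. No array of rosette leaf, cauline leaf or stem reached the lowest array of the remaining organs, 0.20 in light cotyledon. Rosette leaf was called lower than 13 of the other 15 groups, and cauline leaf and stem than 12 each (11.2%, 10.4% and 11.7% of such tests over all probes).

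These 3 groups are the ones whose organ RNA was in channel 1 on every array, so dye and organ cannot be told apart there. In light root, with 1 array in each channel, the channel 1 array was 0.71 below the channel 2 array for GSTU26, against a median absolute difference of 0.65 over 25305 probes. The cauline leaf call was lost without replicate 1 or 3, at −0.89 and −1.13 (limma, adjusted p = 0.14 and 0.058). Among related organs 1 of 14 comparisons was called for GSTU26, light root over light cotyledon. The light cotyledon arrays held 0.55 and 0.20, and the difference was 4.66 ± 0.67 (adjusted p = 2.6e-06), where 14.6% of probes were called higher.

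**Figure D2:**
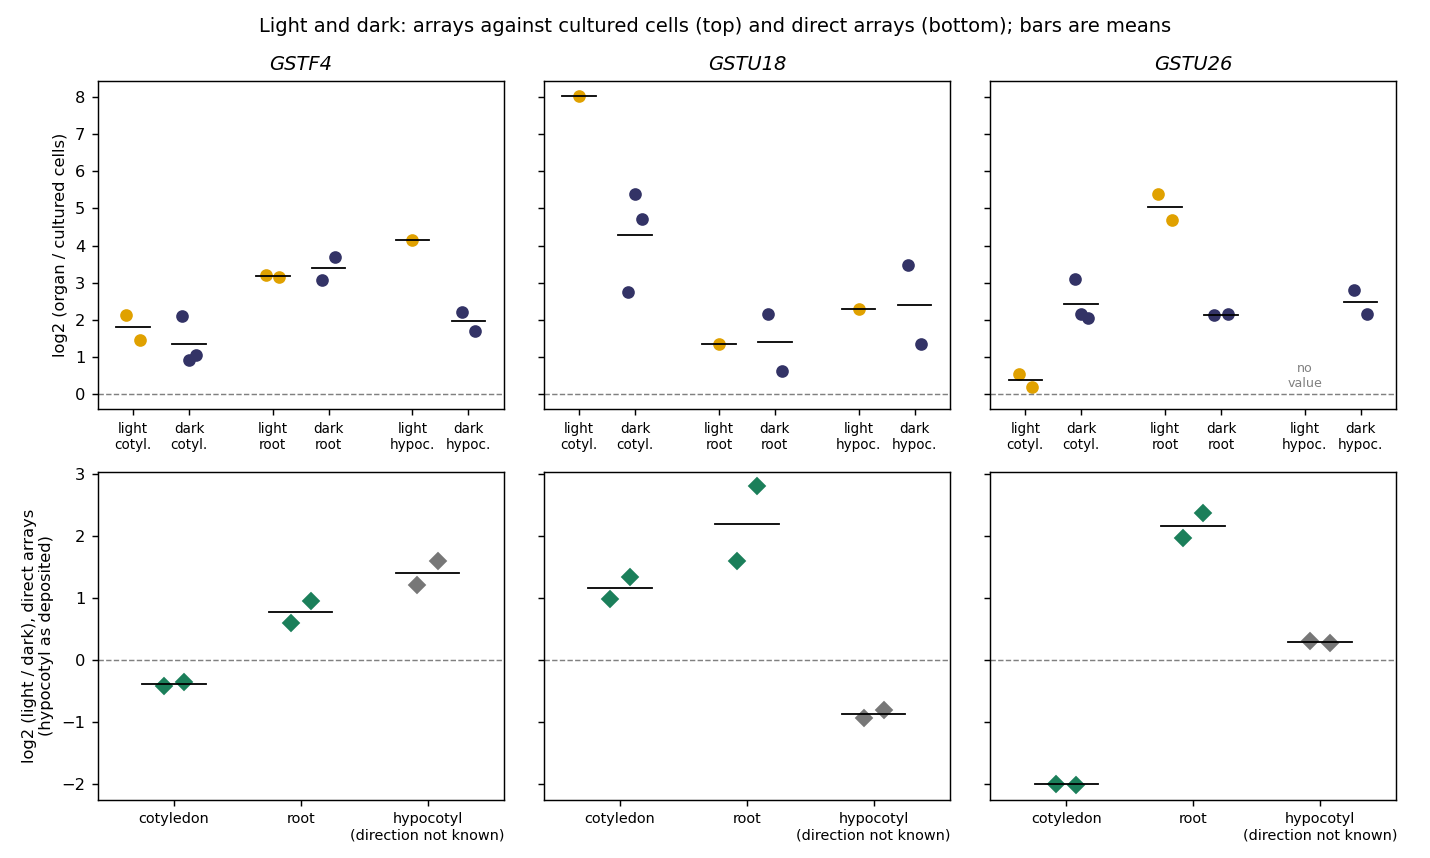
Top, centred log2 ratio of organ over cultured cells in light and dark cotyledon, root and hypocotyl; bottom, centred log2 ratio of the 2 direct arrays per organ; points are arrays and bars means. GSTU26 lies lower in light than dark in cotyledons and higher in light than dark in roots in both rows.

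Light was set against dark in 2 ways, directly on 6 arrays and through the cultured cells on others. GSTU26 was lower in light cotyledons and higher in light roots, each by about 4-fold on the direct arrays. Light RNA was in channel 1 on every direct cotyledon and root array, so dye and light cannot be told apart on them, for any gene. Through the reference, both cotyledon groups and dark root were in channel 2, and light root had 1 array in each channel. GSTF4 and GSTU18 were not called in either organ. For cotyledon and root the directions of the 2 designs matched over all probes, with correlations of 0.54 and 0.49 across 26637 and 26538 probes, which are not independent. For hypocotyl the correlation was −0.08 across 22757 probes, so the direct hypocotyl ratios are given as deposited, with no direction.

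In cotyledons the direct arrays put GSTU26 at −1.99 and −2.01, a mean of −2.00 ± 0.47 (limma, adjusted p = 0.0030), with an interval of −2.96 to −1.04. Through the reference, light cotyledon held 0.55 and 0.20 and dark cotyledon 3.10, 2.16 and 2.06, with no overlap. That difference was −2.07 ± 0.61 (adjusted p = 0.028). GSTU26 was therefore lower in light cotyledons in both designs, where 4.82% and 3.17% of probes were called lower. Adjusted p was 0.075 and 0.081 without the first and the second direct array, between 0.12 and 0.22 through the reference without either light array or dark replicate 1, and 0.070 in each design with its arrays fitted alone, and the call through the reference was also lost with arrays scaled to a common spread, at −2.06 (0.050).

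In roots the direct arrays put GSTU26 at 1.97 and 2.37, a mean of 2.17 ± 0.47 (limma, adjusted p = 0.0020), with an interval of 1.21 to 3.13. Through the reference, light root held 5.38 and 4.68 and dark root 2.12 and 2.17, with no overlap. That difference was 2.89 ± 0.67 (adjusted p = 0.0070), 7.39-fold. GSTU26 was therefore higher in light roots in both designs, where 4.81% and 5.14% of probes were called higher. The call through the reference was lost with the light root arrays averaged as 1 sample (adjusted p = 0.060), without dark root replicate 2 (0.071) and with its arrays fitted alone (0.25), and the direct call without direct root replicate 2 (1.97, adjusted p = 0.17).

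The opposite light responses of GSTU26 were tested against each other. The response of root minus that of cotyledon was 4.17 ± 0.67 on the direct arrays (limma, adjusted p = 7.2e-05, interval 2.81 to 5.53) and 4.95 ± 0.91 through the reference (adjusted p = 0.00075, interval 3.11 to 6.80). Over all probes 2.95% and 4.50% were called in this direction. Without any 1 array the difference stayed between 3.97 and 4.38 in the direct design and between 4.60 and 5.31 through the reference, and remained called, where an organ left with 1 array was assumed to vary like the other groups. Of 24204 probes tested directly in both organs, 39 (0.161%) were lower in light cotyledons and higher in light roots, GSTU26 among them, and 40 ran the other way. By comparison 281 probes were higher in light in both organs and 111 lower in both.

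GSTF4 was not called in either organ. The direct arrays held −0.41 and −0.36 in cotyledons, with an interval of −1.22 to 0.46, and 0.60 and 0.95 in roots, with an interval of −0.07 to 1.62 (limma, adjusted p = 0.67 and 0.24). Through the reference the light minus dark difference was 0.44 ± 0.53 in cotyledons and −0.20 ± 0.59 in roots, so the designs differed in sign in both organs, within their errors. With arrays scaled to a common spread, which stretches arrays of narrow spread, the direct root value was 1.33 (adjusted p = 0.013) and the direct root minus cotyledon difference 2.05 (adjusted p = 0.0090). In hypocotyls the direct arrays held 1.21 and 1.60, a called change of 1.40 ± 0.41 with no settled direction (adjusted p = 0.013, 16.7% of probes called in either direction). Through the reference the single light hypocotyl value was 4.14, against 2.23 and 1.70 in dark hypocotyl. Over all probes tested, that light against dark comparison had a median of 0.65, with 30.8% called higher and 6.63% lower. The light hypocotyl arrays held only 19267 and 19326 values. The direct call was lost without replicate 1 or 2 (adjusted p = 0.097 and 0.20), with its arrays fitted alone (0.083) and without centring, at 0.81 (0.17).

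GSTU18 was not called for light either. Its direct arrays held 0.99 and 1.34 in cotyledons, with an interval of −0.58 to 2.91, and 1.60 and 2.80 in roots, with an interval of 0.46 to 3.95 (limma, adjusted p = 0.46 and 0.091). Through the reference light cotyledon held a single 8.02, above the dark cotyledon values of 2.76, 5.39 and 4.71. Light root held a single 1.35, between the dark root values of 2.16 and 0.63. As deposited, the direct hypocotyl arrays held −0.93 and −0.80 for GSTU18 (adjusted p = 0.53). For GSTU26 they held 0.31 and 0.28 (adjusted p = 0.72). The direct root value passed the threshold with arrays scaled to a common spread, at 3.74 (adjusted p = 0.00079), and with the root arrays fitted alone (adjusted p = 0.0042), and the direct cotyledon value with scaling, at 2.20 (adjusted p = 0.036).

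**Figure D3:**
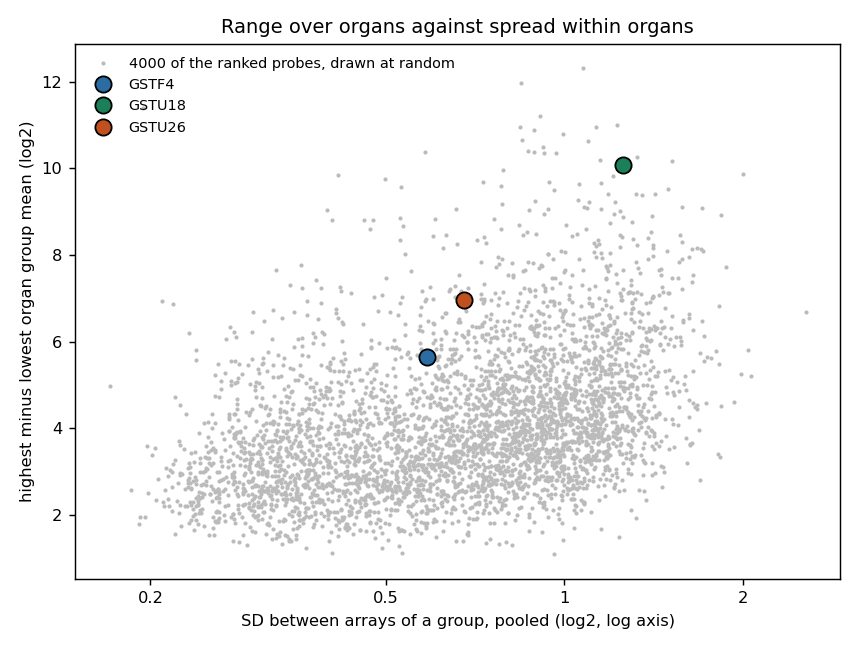
Range of the organ group means (vertical axis, log2 units) against the standard deviation within groups (horizontal log axis, log2 units) for 4000 probes drawn at random from 26036, with the 3 genes marked. The range of GSTU18 lies above that of 99.6% of probes but rests on 1 germinating seed array (6.63 and 94.2% over groups with at least 2 values), whereas the within-group spread of GSTF4 and GSTU26 is below the median probe's.

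The 3 genes differed in how far they ranged. The organ means of GSTF4 spanned 5.65 log2 units, those of GSTU18 10.1 and those of GSTU26 6.96, against a median of 3.81 over 26036 probes. The low end of GSTU18 is the single germinating seed array at −2.05. Over groups with at least 2 values, a setting chosen after seeing the data, GSTU18 spanned 6.63, GSTU26 6.96 and GSTF4 4.90, so without that array GSTU18 did not range wider than GSTU26. Arrays of 1 group spread by 0.59, 1.25 and 0.68, against a median of 0.71. GSTF4 and GSTU26 thus spread less between arrays of a group than GSTU18 did. Across organ means, which share the cultured-cell reference, Pearson's r of GSTF4 with GSTU18 was −0.05 and Spearman's rho −0.40 (17 groups). For GSTF4 with GSTU26 they were 0.22 and 0.27, and for GSTU18 with GSTU26 −0.37 and −0.44 (16 groups each). Stem shows the contrast: against leaves GSTF4 was 1.40 higher, GSTU18 3.66 lower and GSTU26 0.97 higher, the last not called (limma, adjusted p = 0.16).

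Of 53 glutathione transferase genes listed, 5 had a probe that names 1 gene, the 3 above and the tau-class genes GSTU16 (AT1G59700) and GSTU27 (AT3G43800). GSTU16 was called higher than cultured cells in 3 of 13 organ groups and lower in none, with means of 3.54 ± 0.60 in sepal, 2.20 ± 0.43 in pistil 1DPP and 2.06 ± 0.60 in light cotyledon. GSTU27 was called higher in 5 of 17, most in light root (1.81 ± 0.26), and lower in 3, most in pistil 1DPP (−1.97 ± 0.18). Its means spanned 3.79 log2 units, close to the median probe. Over all probes and organ groups, 21.3% of tests were called higher and 21.1% lower. On the direct arrays, where dye and light cannot be told apart, GSTU16 was lower in light cotyledons, at −2.06 and −2.14 (mean −2.10 ± 0.60, limma, adjusted p = 0.020). Through the reference it was not, with 2.48 and 1.64 in light cotyledon and 0.28 and 2.19 in dark cotyledon (difference 0.83 ± 0.85, adjusted p = 0.73).

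**Figure D4:**
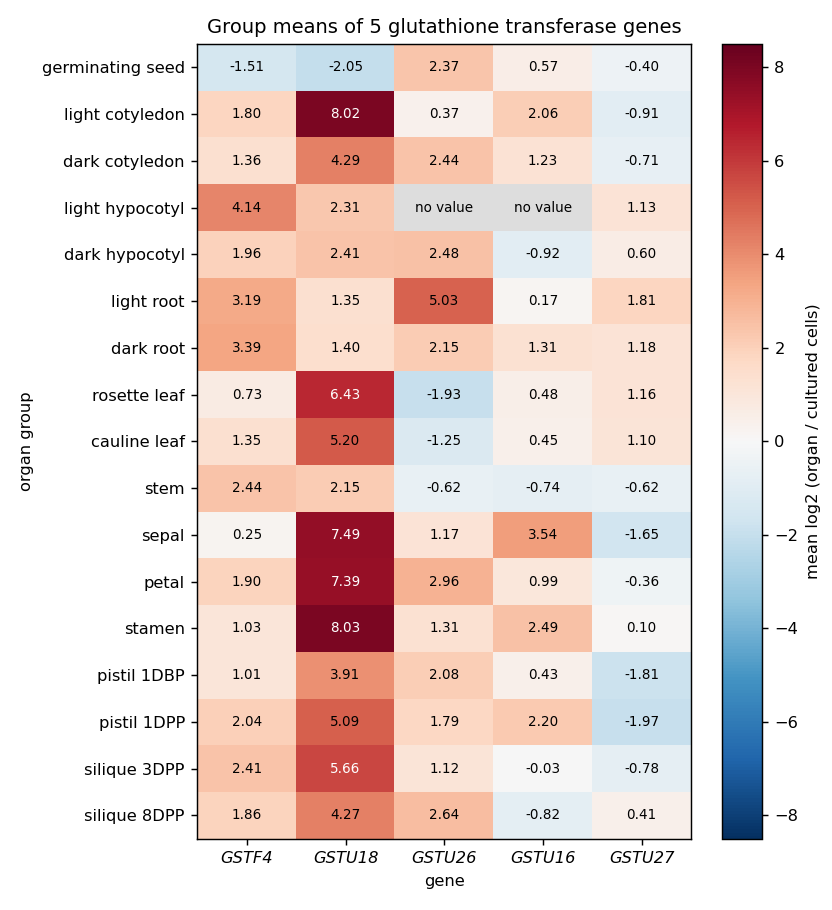
Mean centred log2 ratio of organ over cultured cells in the 17 organ groups (rows) for the 5 measured glutathione transferases (columns), with colour and figures for the mean and grey cells where no value was held. GSTU18 stands at 8.03 in stamen, whereas GSTU27 stays between −1.97 and 1.81.

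Of 30 listed genes of glutathione synthesis, reduction, use and transport, 3 had a probe. GR and GR1 encode glutathione reductases, which regenerate glutathione from its oxidised form, and APS4 encodes an ATP sulfurylase, which starts sulfate assimilation. GR was called higher in 5 and lower in 1 of 17 organ groups, and was highest in rosette leaf at 3.01. GR1 was called higher in none and lower in 7, and ranged from −2.19 to 0.37. APS4 was called higher in 3 and lower in 9. The shares over all probes and organ groups were 21.3% higher and 21.1% lower. Of 19 listed genes of xenobiotic response 1 had a probe, GRX480, a glutaredoxin that binds TGA transcription factors. It was called higher in 1 of 16 groups, light root at 2.23, and lower in 6. Light root is also where GSTU26 and GSTU27 were highest.

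The genes whose organ means were most like those of each member were named by their correlation over organ groups, as a description. For GSTF4, over 17 groups and 1461 named genes, they were AT1G17620 (r = 0.82), SWEET17, a fructose transporter of the vacuole membrane (0.78), and AT3G21290 (0.78), and the least like was AT5G26731 (−0.79). The highest GSTF4 mean in this comparison is a single value, light hypocotyl at 4.14, and the 3 most like genes were highest there too. For GSTU18, over the same groups, they were AT3G21670 (0.85), AT2G29340 (0.83) and AT1G02475 (0.82), with AT3G09470 the least like (−0.80), where 4 of the GSTU18 means are single values. For GSTU26, over 16 groups and 1580 named genes, they were AT4G22212 (0.83), AT1G10810 (0.81) and AT1G64590 (0.79), with AT2G26500 the least like (−0.86). The 95th percentile of r over all named genes was 0.59 for GSTF4, 0.58 for GSTU18 and 0.47 for GSTU26.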

How the data were processed

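The deposited values are log2 ratios, and per the labels each sets an organ against cultured cells or light against dark. Image reading, background, normalization and the array's design are steps of the authors not given in the sources used here. The number of arrays limits the precision. Neither signal over background nor depth is known, and how far they affect the ratios was not tested. The 3 control accessions, of 17 spots each, were averaged, which left 27600 features. Probes were named from their annotation (2676 probes, 2032 with 1 symbol), updated through RefSeq TAIR10.1 with genomic-clone accessions left unnamed, which named 1753 genes by 1802 probes.

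After centring by array medians, a linear model with group means was fitted to all 51 arrays and moderated with limma 3.58.1 (R 4.3.3). It gave 95% intervals and two-sided tests, with Benjamini-Hochberg adjustment over all probes of a comparison. The method was tested on simulated data. Comparisons were organ groups against cultured cells, all 136 pairs of organ groups, 14 related organs or stages, and light against dark. The members, lists, tests and the rule for named genes (every probe of the 3 genes, the 3 most like and 1 least like gene of each, and the largest called genes of each list) were chosen with earlier results of these data known. Extending likeness to 16 groups for GSTU26, which has no light hypocotyl value, testing groups with 1 value, and ranges over groups with at least 2 values were added after seeing the data. Alternatives were other centring, scaling, thresholds, missing-value rules, arrays compared alone, light root arrays averaged, a replicate block, and leaving out each array.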

Additional observations from a re-analysis of the deposited data

Results flagged for a closer look

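For GSTU26 the effect of light differed between roots and cotyledons. The response of root minus that of cotyledon was 4.95 through the reference and 4.17 on the direct arrays, and each was tested as a difference of responses in limma. The 3 genes were also checked in pistil 1DPP, the 1 group of 4 arrays, and no array stood apart from the others.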

How the results depend on the processing

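Of 357 recalculations of light responses, counts and F tests under other settings, 337 were unchanged, as were 959 of 998 for single organ comparisons. Unchanged means the same direction and side of the threshold, or for a count a value within a set ratio of the main one. At adjusted p under 0.01 the GSTF4 direct hypocotyl change (1.40) and the GSTU26 cotyledon difference through the reference (−2.07) were not called, and GSTU18 had 18 called pairs. Without centring the GSTF4 direct hypocotyl change was 0.81 and uncalled, and 0 groups were lower for GSTF4. Uncalled differences that turned sign without centring were GSTU26 direct hypocotyl (−0.30), GSTF4 silique 3DPP against pistil 1DPP (−0.028) and silique 8DPP against 3DPP (0.14), and GSTU26 pistil 1DBP against petal and sepal (−0.48), pistil 1DPP against 1DBP (0.026) and germinating seed against dark cotyledon (0.54). Centring on named probes turned the first and last of these 3 as well (−0.14 and 0.047). Scaling to a common spread called GSTF4 direct root (1.33) and root minus cotyledon (2.05), and GSTU18 direct cotyledon (2.20) and root (3.74), lost the GSTU26 cotyledon difference through the reference (−2.06), and turned GSTF4 pistil 1DBP against petal and sepal (0.024), GSTU18 petal against sepal (1.03), and GSTU26 dark cotyledon and dark root against dark hypocotyl (0.38 and 0.24). With 1 value per group enough, GSTU18 had 62 called pairs, as more groups were tested. With arrays compared alone, which leaves few degrees of freedom, GSTF4 direct hypocotyl (1.40) and GSTU26 direct cotyledon (−2.00) and both reference differences (−2.07 and 2.89) lost their calls, GSTU18 direct root (2.20) gained one, GSTU18 had 18 called pairs and GSTU26 1 lower group. Averaging the light root arrays lost the GSTU26 root difference (2.89). The cause was not tested for the other changes.

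Same-numbered arrays of different groups did not deviate together (median r = 0.00139 over 415 pairs), so the numbers were not taken to pair arrays. With the replicate number as a block, GSTF4 petal against sepal was called (1.75, adjusted p = 0.041) and GSTU26 in sepal was not (1.11, adjusted p = 0.051), and GSTF4 stamen and pistil 1DBP against petal and sepal (0.0047 and 0.017) and GSTU26 dark cotyledon against dark hypocotyl (0.053) turned sign. The block changed no other call.

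A group left with 1 array was assumed to vary like the other groups. With 1 array left out, 594 of 606 recalculations of light responses, counts and F tests were unchanged in the same sense, as were 311 of 358 of single organ comparisons. Most of these 606 were counts and F tests, and the GSTU26 light calls within single organs were often lost, as given above. GSTU26 ranged over −2.01 to −1.99 (direct cotyledon), −2.26 to −1.74 (cotyledon through the reference), 1.97 to 2.37 (direct root), 2.53 to 3.24 (root through the reference) and 1 to 2 lower groups. GSTF4 ranged over 1.21 to 1.60 (direct hypocotyl) and −0.51 to 0.12 (root through the reference, sign turned without dark root replicate 2). Uncalled organ differences that turned sign ranged, for GSTF4, over −0.15 to 0.025 (pistil 1DBP against petal and sepal), −0.059 to 0.68 (silique 3DPP against pistil 1DPP), −1.21 to 0.12 (silique 8DPP against 3DPP) and −0.36 to 0.22 (stamen against petal and sepal). For GSTU18 they ranged over −2.09 to 0.047 (dark root against dark hypocotyl), −1.50 to 1.31 (petal against sepal), −0.24 to 1.30 (silique 3DPP against pistil 1DPP) and −0.38 to 1.29 (stamen against petal and sepal). For GSTU26 they ranged over −0.37 to 0.28 (dark cotyledon against dark hypocotyl), −0.49 to 0.036 (dark root against dark cotyledon), −0.26 to 0.26 (germinating seed against dark cotyledon), −2.09 to 1.57 (germinating seed against silique 8DPP, called in opposite directions without 1 or the other silique array), −0.26 to 0.29 (pistil 1DBP against petal and sepal) and −0.31 to 3.35 (silique 8DPP against 3DPP).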
